A study of Mus musculus with 16 samples.

Results

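The nuclear genes of oxidative phosphorylation were described in mouse embryonic stem (ES) cells with and without the CXXC-domain protein Cfp1, before and after treatment with the DNA damaging agent doxorubicin. Members were all genes whose symbol starts with Nduf, Sdh followed by a to d, Uqcr, Cox5 to Cox8 or Atp5, matched to the gene identifiers of the count table through a mouse annotation. Cox4i1 and Cox4i2, which encode a main subunit of complex IV, fall under the same naming but were not analysed here, so they are in none of the counts. These were 90 of the 22375 genes in the table, and 1 further entry, named as a pseudogene copy of Atp5l, was set apart. RNA from wild-type (WT) E14TG2a cells and from Cfp1-/- ES cells, both of strain 129/OLA, was sequenced in 16 samples. There were 4 groups: untreated WT, WT treated with 1 µM doxorubicin for 6 hours, untreated Cfp1-/- and equally treated Cfp1-/-. The dose is that of the treatment protocol and the study's methods, whereas the treatment label gives millimolar in place of micromolar. Each group held 2 biological replicates, each sequenced in 2 technical replicates that were summed here, so n = 2 per group. Nothing in the sources used here says whether biological replicates came from separate cultures, so p-values measure only the spread between these samples, which may be technical. Cfp1-/- cells are 1 line, without a rescued line among these samples, so a difference between the lines cannot be told apart from other differences between the cultures.

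Oxidative phosphorylation takes place in the inner mitochondrial membrane. Complex I (NADH dehydrogenase) and complex II (succinate dehydrogenase) pass electrons to ubiquinone, complex III (cytochrome bc1) passes them on to cytochrome c and complex IV (cytochrome c oxidase) to oxygen, while complex V (ATP synthase) makes ATP from the proton gradient that complexes I, III and IV build up. Most subunits are encoded in the nucleus and imported, and dedicated assembly factors insert cofactors and join the modules. Mouse ES cells are known to combine glycolysis with an active respiratory chain.

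The summed counts of the 8 biological replicates, with 1 faulty run left out, ranged from 11772320 to 29422711. That run was the second of the pair made from replicate 1 of doxorubicin-treated Cfp1-/- cells. The region concerned was chromosome 19 from base 5849702 onward and the sex chromosomes. There the run held no counts for 439 of 529 well covered genes, against 0 of 7791 elsewhere. Cxxc1, which encodes Cfp1, had 616 to 1412 counts in WT libraries and 1 to 4 in Cfp1-/- libraries. The summed level of 12 pluripotency markers was 4325 to 5422 CPM (the normalized count scaled to a fixed library total) in untreated WT and 4558 to 4643 CPM in untreated Cfp1-/- cells, and 1730 to 2185 CPM and 1883 to 2053 CPM after doxorubicin, with 11 of the 12 called lower in WT and 9 in Cfp1-/- cells. Marker lists of 5 other lineages summed to between 5.68 and 218 CPM in every library. Some of these markers moved with the line: primitive endoderm markers summed to 9.20 to 12.2 CPM in untreated WT and 17.5 to 26.0 CPM in untreated Cfp1-/- cells, the neural marker Olig2 differed by 8.77 and Pax6 by -3.62 on the log2 scale, and 4 pluripotency markers were higher and 4 lower. In such bulk libraries fewer cells of a type and less RNA per cell cannot be told apart, and the part of these marker changes in any result below was not tested.

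Of the 90 genes 86 had enough counts to be tested. Those left out were Cox6a2, Cox8b and Cox8c, the muscle and testis forms of complex IV subunits, with at most 3 counts in any library, and a second identifier for Ndufb8 with 0 counts. Complex I contributed 40 tested genes, complex II 6, complex III 8, complex IV 15 and complex V 17. The 17 include 2 genes, Atp5s and Atp5sl, that bear the name but have another role. For 16 of the 86, among them Ndufs5, Cox5b, Atp5g2, Atp5f1, Atp5o and Atp5h, the genome holds at least 1 near-identical copy, so their counts are less certain.

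To set genes of unlike length side by side, levels were divided by exon length, taken over all annotated exons of a gene. On this scale 79 of the 86 members in untreated WT cells lay above 4.30 CPM per kb, the median of all tested genes. The median of the members was 34.2 CPM per kb in complex I, 25.9 in complex II, 63.2 in complex III, 55.1 in complex IV and 36.5 in complex V. The highest were the catalytic subunits of ATP synthase, Atp5a1 with 429 ± 1.01 CPM per kb (SD, n = 2) and Atp5b with 372 ± 8.27. Cox7b (216 ± 4.01) and Cox6b1 (203 ± 10.8), small subunits of cytochrome c oxidase, led complex IV, and Uqcrb (139 ± 9.78) and Uqcrh (106 ± 5.42) led complex III. In complex I Ndufb9 (131 ± 5.09) was highest, and in complex II the flavoprotein Sdha (99.4 ± 0.422) and the membrane anchor Sdhd (93.8 ± 4.41).

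The lowest members were of several kinds. In complex IV they were 2 forms restricted to particular tissues, Ndufa4l2 with 0.933 ± 0.326 CPM per kb and Cox7b2 with 3.56 ± 0.166. In complex II both assembly factors were lowest, Sdhaf1 (8.23 ± 1.03) and Sdhaf2 (17.6 ± 0.0849). Ndufb2 (1.77 ± 0.542) and Ndufs5 (3.15 ± 0.665) in complex I, Uqcrq (4.73 ± 0.557) and Uqcr10 (35.4 ± 2.78) in complex III, and Atp5s (2.26 ± 0.00926) and Atp5g1 (4.82 ± 0.267) in complex V had the lowest values there. In complexes IV and V the same genes held the 2 lowest places in all 4 groups. In complexes I, II and III the lowest pair changed between groups. These ranks depend on the annotated exon length as well as on the level. Atp5g1 and Atp5g2 had 23.7 and 20.4 CPM in untreated WT cells, but 4.82 and 31.5 CPM per kb, at 4908 and 647 bases.

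**Figure D1:**
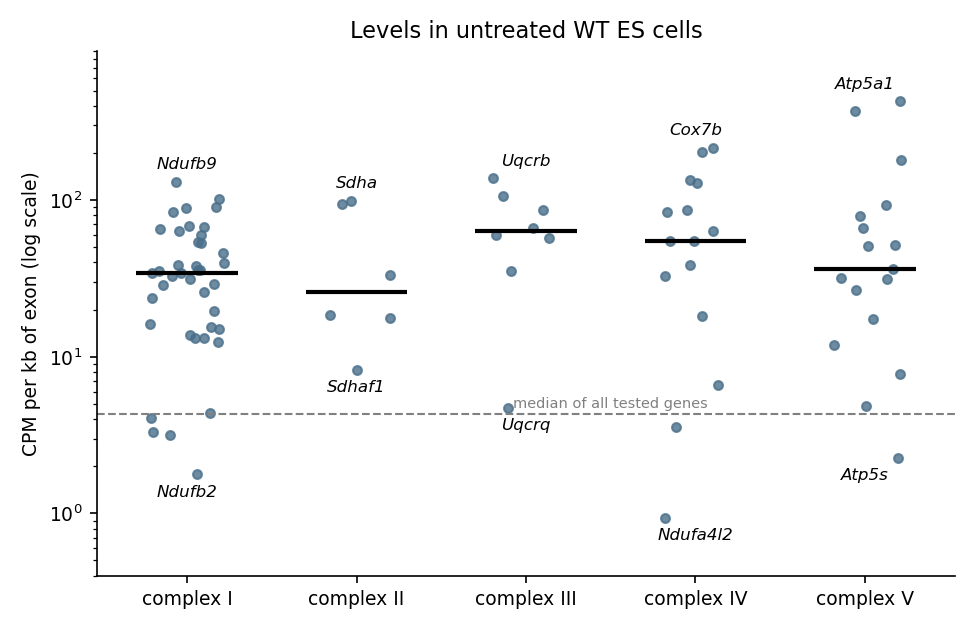
Level of each tested member in untreated WT ES cells, in CPM per kb of exon on a log axis, by complex; points are means of 2 replicates, thick lines the medians of each complex and the dashed line the median of all tested genes. Atp5a1 stands highest at 429 CPM per kb and Ndufa4l2 lowest at 0.933.

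Together the members took 0.774% ± 0.00199 of all counts in untreated WT, 0.827% ± 0.0817 in treated WT, 0.956% ± 0.110 in untreated Cfp1-/- and 1.04% ± 0.0309 in treated Cfp1-/- cells (mean ± SD, n = 2). Atp5a1 and Atp5b alone held 0.249% in untreated WT cells. After TMM normalization, which scales libraries on the bulk of their genes, the members summed to 9056 ± 12.8 CPM, 7788 ± 796 CPM, 9787 ± 955 CPM and 9206 ± 13.5 CPM in the same order. The mean share was thus higher and the normalized sum lower in treated than in untreated WT cells, the share through replicate 2 alone (0.885%; replicate 1 had 0.769%, below both untreated replicates with 0.775% and 0.772%), so the direction of the sum with doxorubicin depended on the scaling, whereas untreated Cfp1-/- cells were above untreated WT cells on both scales. Scaling by total counts moved the log2 fold changes of the median gene by 0.31 for doxorubicin in WT cells, 0.21 in Cfp1-/- cells, and 0.19 and 0.09 for the difference between the lines without and with doxorubicin. Fold changes below are relative to TMM.

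In WT cells doxorubicin was followed by lower levels of Ndufaf4 and of some core subunits, and by higher levels of Cox6b2, Sdhaf1 and Ndufab1. Called lower were 3 of 7 core subunits of complex I, 2 of 4 subunits of complex II and 2 of 3 core subunits of complex III. Under total count scaling 1 core subunit of complex I was called lower, and 0 members of complexes II and III. By the quasi-likelihood test of edgeR, with p-values adjusted over 15762 genes by the Benjamini-Hochberg method, 9 of the 86 members rose and 13 fell at an adjusted p under 0.05. That is 10.5% and 15.1% of the members, against 27.0% and 22.8% of all genes tested. The median log2 fold change of the members was -0.0019 and that of all genes 0.06. Under total count scaling 27 members rose and 2 fell, against 37.2% and 12.4% of all genes, and the 9 rises and 13 falls kept their signs. At the study's limits, which add a 2.5-fold change and a mean of 200 counts, 1 member, Cox6b2, passed, against 7.76% of all genes. The split turned on single treated libraries: 10 rose and 5 fell without replicate 1 of treated WT cells (median 0.06), and 6 rose and 18 fell without replicate 2 (median -0.16). The count of 22 became 12 without replicate 1 and 13 without replicate 2 of untreated WT cells, and 9 of the 22 were called whichever library was left out, among them Cox6b2, Cox8a, Ndufab1, Ndufaf4, Ndufs1, Sdha, Sdhaf1 and Uqcrfs1.

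**Figure D2:**
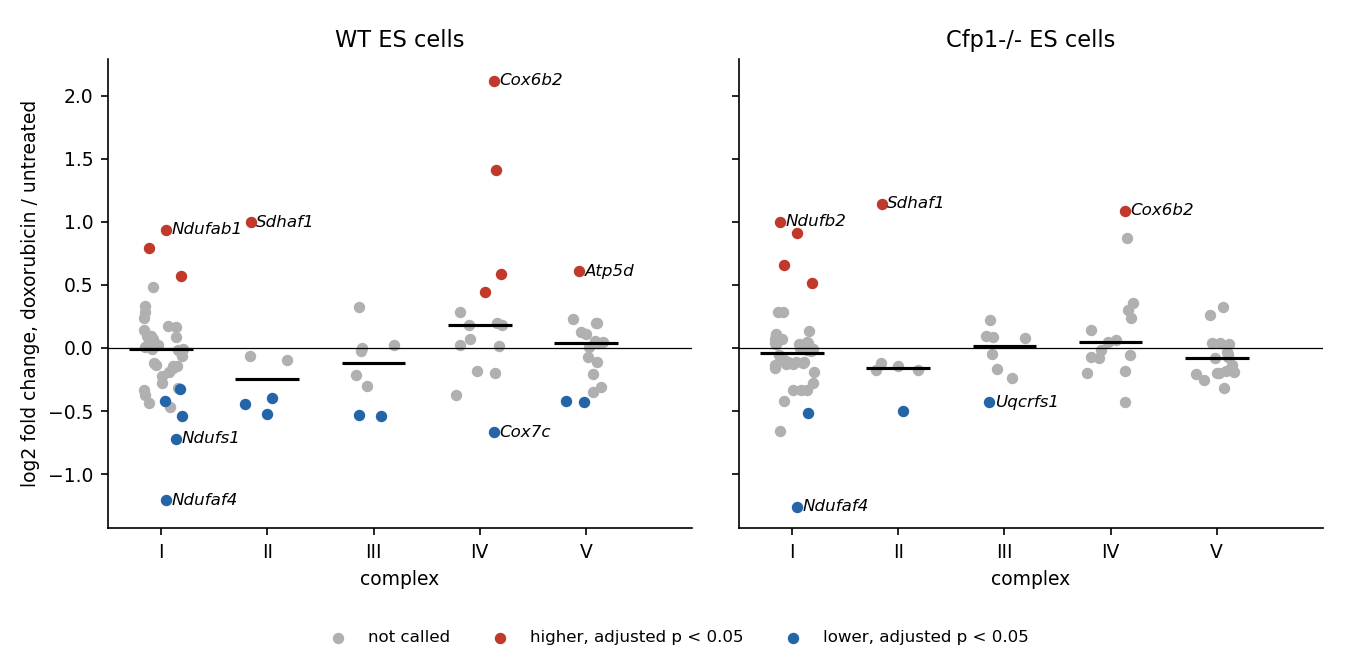
Log2 fold change with doxorubicin of each tested member in WT (left) and Cfp1-/- ES cells (right) by complex; red and blue points are higher and lower at an adjusted p under 0.05, grey points are not called and black lines are medians. Cox6b2 stands highest in WT cells at 2.12 and Ndufaf4 lowest in both lines at -1.21 and -1.26.

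In complex I the assembly factor Ndufaf4, which acts early in building the complex, fell furthest. It had 71.3 and 80.6 CPM in the untreated WT replicates and 31.2 and 34.5 CPM in the treated ones. The groups did not overlap, and it was 2.31-fold lower (log2 fold change -1.21, SE 0.15, adjusted p = 0.000172). All 7 nuclear core subunits, which form the arm with the flavin and the iron-sulfur clusters, had values below 0, and 3 of them fell. Under total count scaling 2 of the 7 lay above 0 and 1 was called lower. Ndufs1, which holds several of the iron-sulfur clusters, had 346 and 339 CPM untreated and 189 and 228 CPM treated (-0.72, SE 0.12, adjusted p = 0.00119). Ndufv1, the subunit that binds NADH, had 180 and 161 CPM and then 141 and 131 CPM (-0.32, SE 0.11, adjusted p = 0.0398), a call lost when any of the 4 WT libraries or either treated Cfp1-/- library was left out (adjusted p up to 0.235). Of the 29 accessory subunits 3 rose and 1 fell. Ndufab1, the mitochondrial acyl carrier protein, went from 26.8 and 29.2 CPM to 59.3 and 48.1 CPM, which was 1.92-fold higher (0.94, SE 0.16, adjusted p = 0.0012).

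In complex II both catalytic subunits and the assembly factor Sdhaf2 fell, and the assembly factor Sdhaf1 rose. The flavoprotein subunit Sdha had 387 and 385 CPM untreated and 253 and 285 CPM with doxorubicin (-0.52, SE 0.12, adjusted p = 0.00538). The iron-sulfur subunit Sdhb had 75.3 and 73.5 CPM and then 49.2 and 59.9 CPM (-0.45, SE 0.14, adjusted p = 0.0255). Both treated replicates lay below both untreated ones in each gene, while the anchors Sdhc and Sdhd were not called. Sdhaf1, needed to put iron-sulfur clusters into Sdhb, rose from 8.65 and 7.24 CPM to 16.7 and 15.1 CPM, 2.00-fold (1.00, SE 0.19, adjusted p = 0.00187). Sdhaf2, needed to attach flavin to Sdha, had 54.6 and 54.2 CPM and then 41.0 and 41.4 CPM (-0.40, SE 0.12, adjusted p = 0.023). The call of Sdhb was lost without either untreated WT library or replicate 1 of treated WT cells (adjusted p up to 0.144), and that of Sdhaf2 without any of the 4 WT libraries (up to 0.0941).

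In complex III 2 of the 3 core subunits fell and none of the 5 accessory subunits was called. Uqcrc2, a core protein, had 139 and 160 CPM untreated and 93.8 and 112 CPM treated (-0.54, SE 0.14, adjusted p = 0.00973), a call lost without replicate 2 of untreated or replicate 1 of treated WT cells (adjusted p 0.0659 and 0.0632). Uqcrfs1, the Rieske iron-sulfur protein, had 90.7 and 91.3 CPM and then 65.3 and 60.6 CPM (-0.53, SE 0.12, adjusted p = 0.00506). For Uqcrc1, the other core protein, the values were 138 and 147 CPM and then 109 and 137 CPM, with an adjusted p of 0.197.

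In complex IV 4 members rose and 1 fell, and the largest rise of any member was that of a form with restricted expression. Cox6b2, a testis form of the subunit Cox6b1, had 13.3 and 6.66 CPM in untreated and 52.5 and 34.8 CPM in treated WT cells. The lowest treated replicate was above the highest untreated one, and Cox6b2 was 4.35-fold higher (2.12, SE 0.31, adjusted p = 0.000461). Cox6b1 itself, at 98.7 and 106 CPM before and 89.4 and 126 CPM after, was not called (adjusted p = 0.771). Ndufa4l2, known as a hypoxia-induced relative of the complex IV subunit Ndufa4, was barely expressed, with 0.674 and 1.12 CPM before and 1.83 and 2.90 CPM after (1.42, SE 0.44, adjusted p = 0.0225; DESeq2 adjusted p = 0.0797). That call was also lost without replicate 1 of untreated or replicate 2 of treated WT cells (adjusted p 0.133 and 0.155), and Ndufa4 was not called. Cox8a, the common form of the smallest subunit, rose from 48.1 and 46.5 CPM to 68.7 and 73.4 CPM (0.59, SE 0.13, adjusted p = 0.00466). Cox7c, another small subunit, had 61.3 and 63.5 CPM and then 34.9 and 43.4 CPM (-0.67, SE 0.21, adjusted p = 0.026), a call lost without either untreated WT library or replicate 1 of treated WT cells (up to 0.126). Cox6a1 had an adjusted p of 0.0274 by edgeR and 0.0518 by DESeq2.

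In complex V the subunits of the catalytic F1 head differed in direction. Atp5a1, the alpha subunit, had 1346 and 1342 CPM untreated and 917 and 1084 CPM treated (-0.43, SE 0.13, adjusted p = 0.0193). Atp5b, the beta subunit with the catalytic sites, had 1601 and 1552 CPM and then 1215 and 1326 CPM, and its adjusted p was 0.0567 without and 0.0301 with the replicate number as a block. Atp5d, the delta subunit of the central stalk, rose from 20.7 and 24.8 CPM to 36.8 and 32.7 CPM (0.61, SE 0.15, adjusted p = 0.00844), while none of the c-ring, membrane or peripheral stalk subunits was called. The call of Atp5a1 was lost without either untreated WT library or replicate 1 of treated WT cells (adjusted p up to 0.117), and that of Atp5d without replicate 1 of untreated WT cells (0.0739).

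In Cfp1-/- cells doxorubicin raised 6 and lowered 4 of the 86 members, 6.98% and 4.65%, against 27.7% and 21.4% of all genes tested. With the replicate block 6 rose and 8 fell, against 30.9% and 25.9% of all genes. The median of the members was -0.06 on the log2 scale (-0.17 without replicate 1 and 0.06 without replicate 2 of untreated Cfp1-/- cells), and under total count scaling 10 rose and 1 fell, against 33.1% and 13.5% of all genes. None passed the study's limits, which 7.24% of all genes did, and without replicate 2 of treated Cfp1-/- cells 4 members were called in place of 10. Ndufaf4 again fell furthest, from 48.6 and 59.7 CPM to 22.5 and 22.7 CPM, 2.39-fold (-1.26, SE 0.15, adjusted p = 0.00016). Sdhaf1 rose most, from 12.5 and 13.4 CPM to 26.2 and 30.8 CPM, 2.21-fold (1.14, SE 0.18, adjusted p = 0.0008). In both genes the treated and untreated replicates did not overlap, and together with Ndufab1 they were the members called whichever library was left out. Cox6b2 rose from 26.8 and 22 CPM to 54.4 and 49.6 CPM, 2.13-fold (1.09, SE 0.30, adjusted p = 0.0133). Ndufb2, a small accessory subunit of the membrane arm of complex I, rose from 8.79 and 8.96 CPM to 17.4 and 18.1 CPM (1.00, SE 0.25, adjusted p = 0.00926). The Rieske protein gene Uqcrfs1 had 104 and 111 CPM before and 84.9 and 75 CPM after (-0.43, SE 0.12, adjusted p = 0.0142), and Sdhaf2 56.1 and 57.7 CPM before and 38.0 and 42.2 CPM after (-0.50, SE 0.12, adjusted p = 0.00801). Leaving out a single library ended the calls of Cox6b2 (replicate 2 of untreated or either replicate of treated Cfp1-/- cells, adjusted p up to 0.0885), Ndufb2 (replicate 2 of treated, 0.0586), Uqcrfs1 (replicate 2 of either group, up to 0.135) and Sdhaf2 (replicate 1 of treated, 0.0634).

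The calls in the lines, which share no library, can be set side by side. Of the 9 rises in WT cells 5 were also called in Cfp1-/- cells, 55.6% of the 9 and 83.3% of the 6, against 79.7% and 77.7% over all tested genes: Cox6b2, Ndufa11, Ndufab1, Ndufb2 and Sdhaf1. Of the 13 falls 3 were shared, 23.1% of the 13 and 75% of the 4, against 74.0% and 78.7% over all genes: Ndufaf4, Sdhaf2 and Uqcrfs1. No member was called in opposite directions, and 64 of 86 (74.4%) had the same sign, against 85.0% of all tested genes. The core subunits of complex I, with values from -0.72 to -0.0050 in WT cells, lay between -0.34 and -0.023 in Cfp1-/- cells with none called; Ndufs1 there had 321 and 357 CPM before and 271 and 267 CPM after, with an adjusted p of 0.0503 without and 0.0226 with the replicate block.

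Whether the response differed between the lines was tested by the interaction of genotype and treatment. No member passed it by edgeR at an adjusted p under 0.05, against 0.247% of all genes, nor with the replicate block, where 2.23% of all genes were called, nor by DESeq2. At an unadjusted p under 0.05 there were 2 members in edgeR, 4 with the block and 1 in DESeq2. The 2 in edgeR were Cox6b2, whose response was 1.03 lower on the log2 scale in Cfp1-/- cells (SE 0.42, adjusted p = 0.402), and Sdha, whose response was 0.38 higher (SE 0.17, adjusted p = 0.432). Sdha had 353 and 329 CPM in untreated and 329 and 290 CPM in treated Cfp1-/- cells, so 1 replicate of each group stood at 329 CPM. Neither difference passed over all genes at the spread of 2 replicates.

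Between the lines the members differed mostly in one direction. In untreated cells 31 of 86 were higher and 4 lower in Cfp1-/- than in WT, 36.0% and 4.65%, against 18.7% and 17.2% of all genes tested. The median log2 difference was 0.29 for the members and 0.01 for all genes, and 64 of the 86 values were above 0. Total count scaling gave 45 higher and 1 lower, against 25.6% and 10.8% of all genes. In treated cells 25 were higher and 5 lower, 29.1% and 5.81%, against 16.0% and 12.1% of all genes, with a median of 0.30, and total count scaling gave 36 and 1, against 18.7% and 9.21%. With the replicate number as a block 39 members were higher and 7 lower in untreated cells, against 23.1% and 22.3% of all genes. In treated cells the block gave 40 higher and 7 lower in place of 25 and 5, against 21.4% and 17.5% of all genes. Without the members that have near-identical copies, 26 were higher and 3 lower of 70 in untreated cells and 20 and 4 in treated cells.

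By complex, untreated Cfp1-/- cells were higher in 13 and lower in 1 of 40 members of complex I, 1 and 0 of 6 of complex II, 3 and 0 of 8 of complex III, 7 and 1 of 15 of complex IV, and 7 and 2 of 17 of complex V. Of the 7 higher in complex V, 1 was Atp5sl, which has another role. Complex II stood lowest with a median log2 difference of 0.01, and its 4 subunits had no call. Accessory subunits of complex I were higher in 11 of 29 cases and core subunits in 1 of 7. In treated cells the counts were 8 of 29 and 2 of 7, so the shares were alike there. The untreated and treated comparisons share no library, and 21 members were higher in both, 67.7% of the 31 and 84% of the 25, against 59.9% and 70.1% over all tested genes; Atp5e, Cox5b and Ndufaf4 were lower in both, and 72 of 86 members (83.7%) had the same sign, against 79.1% of all genes. At the study's limits Atp5g1 and Ndufa3 passed in untreated cells, against 3.22% of all genes, and Ndufa3, Ndufb10 and Uqcr10 passed in treated cells, against 2.58%.

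These counts and medians changed when single libraries were left out. Without a library of the groups compared, fewer genes were called over all tested genes as well. Whether the drop differed between the members and all genes was not tested. The untreated median of 0.29 was 0.44 without replicate 1 and 0.20 without replicate 2 of untreated Cfp1-/- cells, and the treated median of 0.30 was 0.20 without replicate 1 and 0.45 without replicate 2 of treated WT cells. The 35 members called in untreated cells became 20 without replicate 1 of untreated WT, 15 without replicate 2 of untreated WT and 20 without replicate 2 of untreated Cfp1-/- cells. The 30 in treated cells became 17 without replicate 1 of treated WT, 11 without replicate 1 and 8 without replicate 2 of treated Cfp1-/- cells. Members called whichever library was left out were 12 in untreated cells and 8 in treated cells. The 8 were Atp5g1, Atp5h, Ndufa3, Ndufb10, Ndufc2, Ndufs5, Uqcr10 and Uqcrc2, and the 12 were these with Atp5o, Atp5sl, Cox8a and Ndufb7. The untreated Cfp1-/- replicates held 0.878% and 1.03% of their counts on the members.

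**Figure D3:**
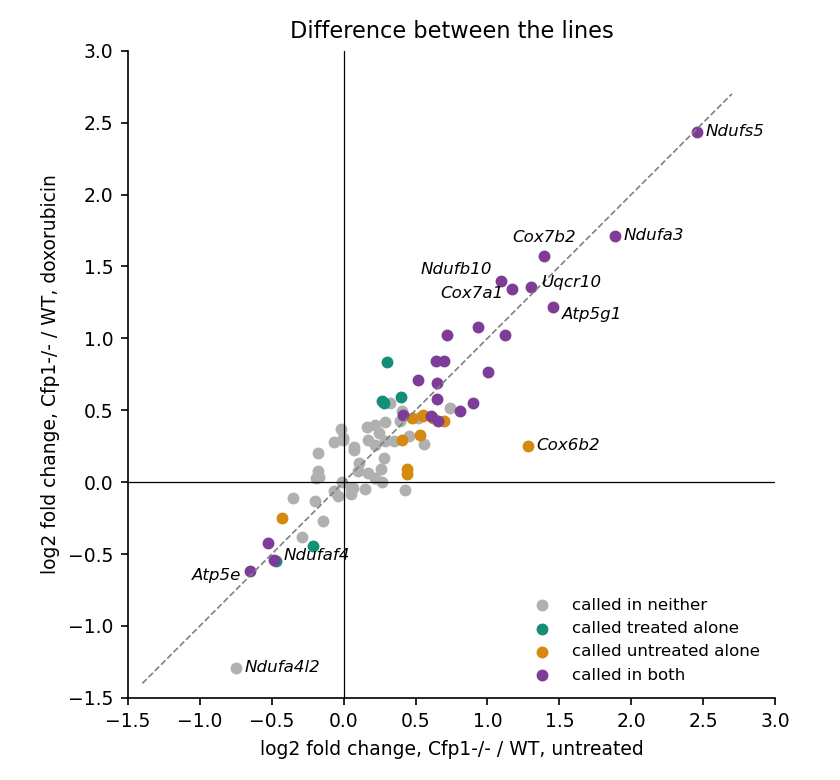
Log2 fold change of each tested member between Cfp1-/- and WT ES cells, untreated on the x axis and with doxorubicin on the y axis; colours mark in which comparison a member was called and the dashed line marks equal values. Ndufs5 lies furthest up at 2.46 and 2.44, and 64 of 86 members lie above 0 on the x axis and 68 on the y axis.

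In complex I the largest differences were in small accessory subunits. Ndufs5, a subunit of the membrane arm, had 2.30 and 3.11 CPM in untreated WT and 13 and 16.6 CPM in untreated Cfp1-/- cells. It had 2.84 and 2.90 CPM in treated WT and 13.7 and 17.4 CPM in treated Cfp1-/- cells. Every Cfp1-/- library was above every WT library, by 5.49-fold untreated (2.46, SE 0.26, adjusted p = 0.000243) and 5.41-fold treated (2.44, SE 0.26, adjusted p = 0.000472). Ndufa3 had 27.4 and 26.4 CPM in untreated WT and 87.2 and 112 CPM in untreated Cfp1-/- cells, 3.69-fold more (1.89, SE 0.24, adjusted p = 0.00059), and 20.6 and 36.8 CPM against 90.2 and 98.3 CPM with doxorubicin (1.71, SE 0.24, adjusted p = 0.00149). Ndufb10 had 69.9 and 59.8 CPM against 132 and 144 CPM untreated (1.09, SE 0.15, adjusted p = 0.000753) and 43.3 and 53.7 CPM against 121 and 136 CPM treated (1.40, SE 0.15, adjusted p = 0.000444). These 3 genes did not overlap between the lines at either condition. Ndufaf4 was the one member of complex I called lower in untreated Cfp1-/- cells (-0.49, SE 0.15, adjusted p = 0.0277), and it was also lower in treated cells (-0.54, adjusted p = 0.027). The untreated call of Ndufaf4 was lost without either untreated WT library, replicate 1 of untreated Cfp1-/- or either treated Cfp1-/- library (adjusted p up to 0.208). Its treated call was lost without replicate 2 of treated WT or either treated Cfp1-/- library (up to 0.133).

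Ndufs5 is the member that differed most between the lines, and its promoter is shown because Cfp1 binds unmethylated CpG dinucleotides, which are in capitals. The sequence is the 250 bases before the RefSeq start (RefSeq table of build GRCm38.p6), found once in NCBIM37 at chr4:123395430-123395679 on the minus strand, and it holds 18 CpG. Uqcr10, the complex III member with the largest difference, is also shown, at chr11:4604348-4604597 on the minus strand with 5 CpG. With bases after the start counted as well, as in the promoter counts below, Ndufs5 held 25 CpG and Uqcr10 13. The median of the tested members in that longer window was 19. Both genes were higher in Cfp1-/- cells, and a link between CpG number and the difference was not tested.
Ndufs5: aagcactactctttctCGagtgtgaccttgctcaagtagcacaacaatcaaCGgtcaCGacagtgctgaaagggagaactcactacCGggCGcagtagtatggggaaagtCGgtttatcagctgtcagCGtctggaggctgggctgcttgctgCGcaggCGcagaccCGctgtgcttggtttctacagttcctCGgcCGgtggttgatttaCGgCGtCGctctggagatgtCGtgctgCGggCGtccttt
Uqcr10: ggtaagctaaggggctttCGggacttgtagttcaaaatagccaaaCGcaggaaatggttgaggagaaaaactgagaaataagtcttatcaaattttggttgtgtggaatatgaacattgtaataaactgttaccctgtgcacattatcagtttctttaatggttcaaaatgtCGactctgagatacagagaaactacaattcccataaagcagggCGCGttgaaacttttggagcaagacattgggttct

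In complex II Sdhaf1 was higher in Cfp1-/- cells both untreated (1.62-fold; 0.70, SE 0.19, adjusted p = 0.0168) and treated (1.80-fold; 0.84, SE 0.18, adjusted p = 0.00924), with every Cfp1-/- value above both WT values of the same condition. The untreated call was lost without replicate 2 of either untreated group (adjusted p up to 0.107) and the treated one without replicate 2 of either treated group (up to 0.0907). Sdhd, a membrane anchor, had 117 and 125 CPM in untreated WT and 72.6 and 102 CPM in untreated Cfp1-/- cells (adjusted p = 0.0679; 0.005 with the replicate block). It had 100 and 126 CPM against 71.1 and 83.6 CPM in treated cells (-0.55, SE 0.18, adjusted p = 0.0496), a call lost without replicate 2 of treated WT or either replicate of treated Cfp1-/- cells (up to 0.235). Sdhb had 49.2 and 59.9 CPM in treated WT and 79.1 and 80.8 CPM in treated Cfp1-/- cells (0.55, SE 0.14, adjusted p = 0.0192), which did not hold without replicate 1 of treated WT or either replicate of treated Cfp1-/- cells (up to 0.107).

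In complex III 3 members were higher in both conditions. Uqcr10, a small accessory subunit, had 19.5 and 21.8 CPM in untreated WT and 43.8 and 58.1 CPM in untreated Cfp1-/- cells, 2.47-fold more (1.30, SE 0.21, adjusted p = 0.00158). With doxorubicin it had 17.7 and 24.2 CPM against 48.0 and 59.3 CPM (1.36, SE 0.21, adjusted p = 0.00204). Uqcrc2 had 139 and 160 CPM against 229 and 263 CPM untreated (0.72, SE 0.14, adjusted p = 0.00389) and 93.8 and 112 CPM against 218 and 200 CPM treated (1.02, SE 0.14, adjusted p = 0.00125). The third was Uqcrq, and the groups overlapped in none of the 3 genes. Uqcrc1, the partner of Uqcrc2 in the core, had a difference of -0.0030 untreated and 0.31 treated, with an adjusted p of 0.104 in the latter and 0.049 with the replicate block.

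In complex IV 3 of the 4 tested tissue-restricted forms were higher in untreated and 2 in treated Cfp1-/- cells, beside some common subunits. The fourth form, Ndufa4l2, had log2 differences of -0.75 untreated (adjusted p = 0.247) and -1.29 treated (adjusted p = 0.056; 0.021 with the replicate block). Cox7b2, a testis form of Cox7b, was low everywhere, with 1.86 and 1.99 CPM in untreated WT and 3.82 and 6.32 CPM in untreated Cfp1-/- cells (2.63-fold; 1.39, SE 0.40, adjusted p = 0.0237). Cox7a1, the heart and muscle form of the subunit Cox7a2, had 2.7 and 2.14 CPM against 5.37 and 5.56 CPM untreated (1.17, SE 0.26, adjusted p = 0.00775). With doxorubicin Cox7a1 had 2.59 and 2.90 CPM against 6.76 and 7.20 CPM (1.34, SE 0.26, adjusted p = 0.00623). The common form Cox7a2 had no call in either condition (adjusted p 0.295 and 0.106), although with the replicate block its adjusted p in treated cells was 0.007. Cox6b2 was 2.43-fold higher untreated (1.28, SE 0.31, adjusted p = 0.0106) but differed by 0.25 on the log2 scale in treated cells, where it was not called (adjusted p = 0.548). In untreated cells calls were lost for Cox6b2 without replicate 1 of untreated Cfp1-/- cells (adjusted p = 0.0569), for Cox7a1 without replicate 2 of untreated WT (0.051), and for Cox7b2 without either untreated WT library or replicate 2 of untreated Cfp1-/- cells (up to 0.157). In treated cells the call of Cox7a1 was lost without replicate 2 of treated Cfp1-/- cells (0.0513) and that of Cox7b2 without replicate 1 of treated WT or either treated Cfp1-/- library (up to 0.13).

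The common subunit Cox8a had 48.1 and 46.5 CPM in untreated WT and 79.7 and 96.4 CPM in untreated Cfp1-/- cells (0.90, SE 0.13, adjusted p = 0.00105). Cox5b, which carries a zinc site, was the common subunit that was lower, with 70.7 and 80.9 CPM against 55.1 and 50.4 CPM untreated (-0.52, SE 0.14, adjusted p = 0.0153). In treated cells Cox5b had 79.4 and 94.5 CPM against 65.8 and 64.1 CPM (-0.42, SE 0.14, adjusted p = 0.0452). In treated cells Cox8a had 68.7 and 73.4 CPM against 106 and 102 CPM (0.55, SE 0.13, adjusted p = 0.0135), a call lost without replicate 1 of treated WT or either treated Cfp1-/- library (up to 0.0885). The lines did not overlap in Cox5b or Cox8a at either condition. The Cox5b calls were lost without replicate 2 of untreated WT or either untreated Cfp1-/- library (adjusted p up to 0.102) and, in treated cells, without replicate 2 of treated WT or any Cfp1-/- library (up to 0.216).

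In complex V the 3 genes of the c subunit, which encode the same mature protein of the rotating ring behind different import sequences, did not move together. Atp5g1 had 22.7 and 24.6 CPM in untreated WT and 57.4 and 72.6 CPM in untreated Cfp1-/- cells, and 21.0 and 27.9 CPM against 60.9 and 53.1 CPM with doxorubicin. All Cfp1-/- libraries were above all WT libraries, by 2.75-fold untreated (1.46, SE 0.18, adjusted p = 0.000541) and 2.33-fold treated (1.22, SE 0.18, adjusted p = 0.00192). Atp5g2 had 18.7 and 22.1 CPM in untreated WT and 15.6 and 21.3 CPM in untreated Cfp1-/- cells (-0.14, SE 0.20, adjusted p = 0.6). Atp5g3 had 77.6 and 81.8 CPM against 66.3 and 72.5 CPM (-0.20, SE 0.13, adjusted p = 0.272). Neither was called in treated cells, and none of the 3 responded to doxorubicin at an adjusted p under 0.05 in either line. That the difference of Atp5g1 is unlike that of the other two was not itself tested.

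**Figure D4:**
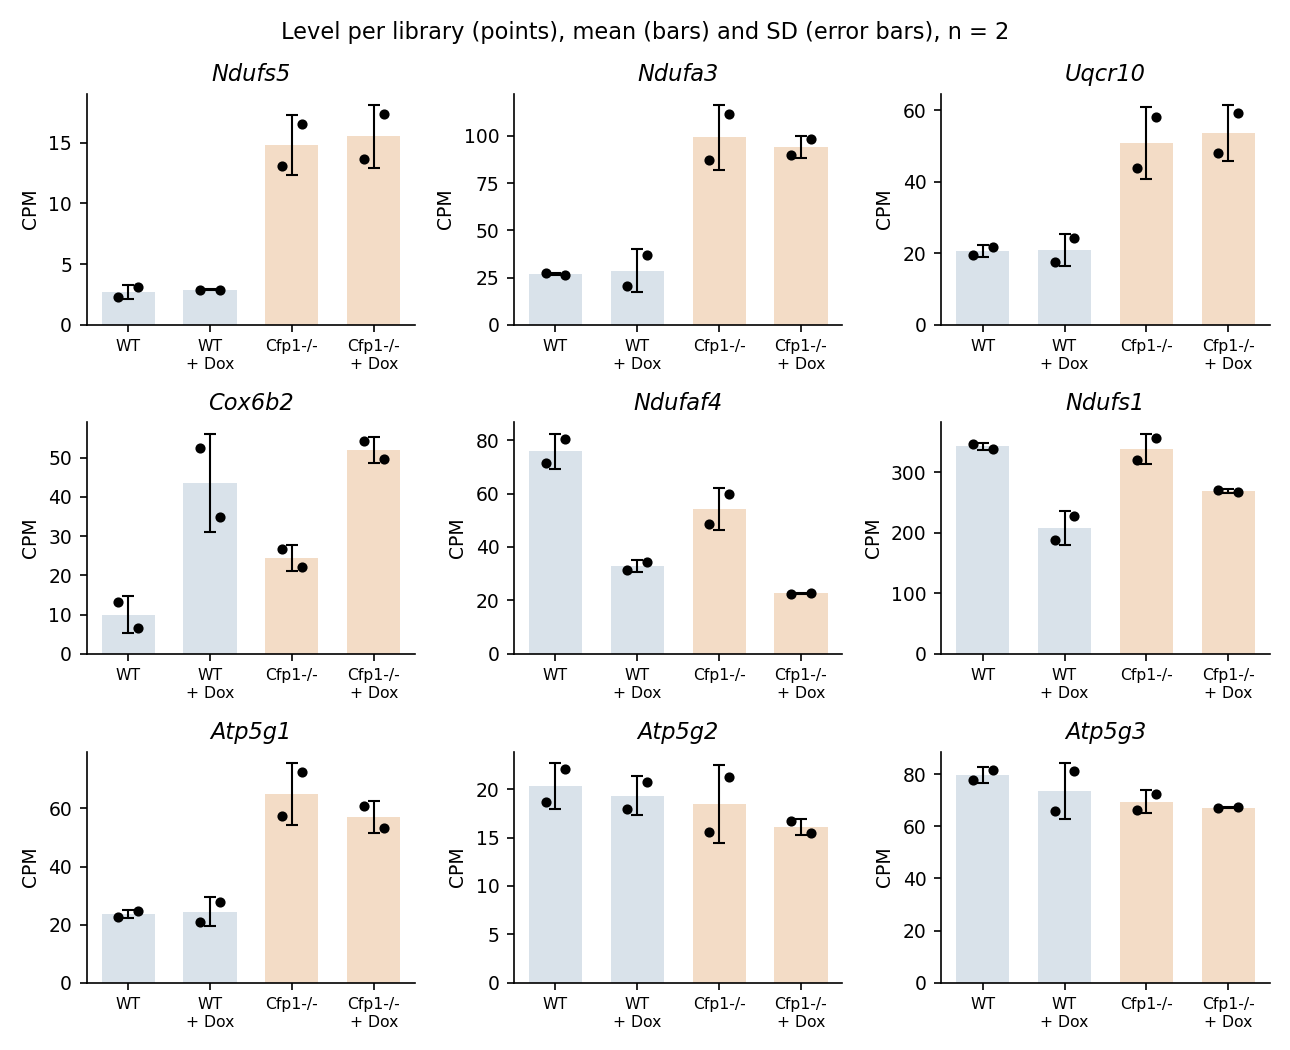
Level in CPM of 9 members in each library (points), with the mean (bars) and SD (error bars) of 2 replicates, in WT and Cfp1-/- ES cells without and with doxorubicin (Dox). Atp5g1 runs from 21.0 to 27.9 CPM in WT and 53.1 to 72.6 CPM in Cfp1-/- libraries, while Atp5g2 and Atp5g3 overlap between the lines over all libraries. Within a condition, Atp5g3 in untreated and Atp5g2 in treated cells do not overlap and are lower in Cfp1-/- libraries.

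The promoters of the 3 c subunit genes are shown because the genes code for 1 mature protein and 1 of them, Atp5g1, was called different between the lines. Each is the 250 bases before the RefSeq start with CpG in capitals, on the minus strand of NCBIM37: Atp5g1 at chr11:95936946-95937195 with 15 CpG, Atp5g2 at chr15:102501479-102501728 with 19 CpG and Atp5g3 at chr2:73749384-73749633 with 15 CpG.
Atp5g1: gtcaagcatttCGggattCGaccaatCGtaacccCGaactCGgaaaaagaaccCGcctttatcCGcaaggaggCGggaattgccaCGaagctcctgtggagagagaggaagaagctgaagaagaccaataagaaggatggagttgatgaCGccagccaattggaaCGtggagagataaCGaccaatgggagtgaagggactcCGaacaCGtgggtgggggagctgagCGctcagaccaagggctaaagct
Atp5g2: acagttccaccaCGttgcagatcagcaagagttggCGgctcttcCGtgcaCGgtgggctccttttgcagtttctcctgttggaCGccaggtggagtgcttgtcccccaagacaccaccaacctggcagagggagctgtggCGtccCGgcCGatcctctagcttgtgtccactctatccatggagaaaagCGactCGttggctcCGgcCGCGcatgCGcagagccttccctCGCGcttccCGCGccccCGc
Atp5g3: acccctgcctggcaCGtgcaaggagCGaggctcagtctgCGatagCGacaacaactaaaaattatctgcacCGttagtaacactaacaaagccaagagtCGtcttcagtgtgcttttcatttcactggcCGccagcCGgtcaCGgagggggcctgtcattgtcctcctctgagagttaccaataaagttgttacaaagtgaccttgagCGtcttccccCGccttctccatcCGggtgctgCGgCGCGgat

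The stalk that holds the F1 head in place was higher in 3 of its 4 members in both conditions. Atp5h, the d subunit, had 94.4 and 101 CPM in untreated WT and 172 and 219 CPM in untreated Cfp1-/- cells, 2.00-fold more (1.00, SE 0.13, adjusted p = 0.000739). Atp5f1, the b subunit, had 305 and 341 CPM against 440 and 574 CPM (0.65, SE 0.15, adjusted p = 0.00862), and Atp5o, which joins the stalk to the head, 114 and 116 CPM against 167 and 196 CPM (0.66, SE 0.12, adjusted p = 0.00322). All 3 have near-identical copies in the genome. In the F1 head Atp5e, the epsilon subunit, was lower, with 45.5 and 48.5 CPM against 28.0 and 31.7 CPM untreated (-0.65, SE 0.16, adjusted p = 0.0103) and 41.7 and 52.6 CPM against 29.9 and 31.4 CPM treated (-0.62, SE 0.16, adjusted p = 0.0177). Atp5b had 1601 and 1552 CPM in untreated WT and 1093 and 1251 CPM in untreated Cfp1-/- cells (-0.43, SE 0.12, adjusted p = 0.0219), whereas Atp5a1 had 1196 and 1365 CPM in the latter and was not called (adjusted p = 0.693). Atp5d went the other way and was called higher in untreated Cfp1-/- cells, with 20.7 and 24.8 CPM against 30.4 and 31.2 CPM (0.44). It was not called in treated cells. The calls of Atp5e were lost without replicate 2 of untreated WT or replicate 1 of untreated Cfp1-/- (adjusted p up to 0.0847) and without replicate 2 of treated WT or either treated Cfp1-/- library (up to 0.103), and that of Atp5b without either untreated WT library or replicate 1 of untreated Cfp1-/- cells (up to 0.158).

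The calls were also read by exon length, taken over all annotated exons of a gene. This length can exceed that of its transcripts, so the classes are not classes of transcript length. Ndufab1, with 6883 bases, and Ndufb2, with 5628, fall in the longest class. With doxorubicin in WT cells 5 of the 32 members under 1000 bases rose and none fell, against 15.3% and 14.0% of all genes of that length. Of the 35 members from 1000 to 2500 bases 1 rose and 6 fell, against 25.0% and 18.6% of all such genes. Of the 19 longer members 3 rose and 7 fell, against 28.6% and 25.0%. In untreated Cfp1-/- against WT cells the median log2 difference of the members was 0.43, 0.22 and 0.27 in the 3 length classes, against 0.09, 0.10 and -0.02 for all genes of these lengths. The higher and lower counts there were 15 and 1 (23.1% and 14.3% of all genes of that length), 9 and 1 (20.3% and 12.7%), and 7 and 2 (17.7% and 19%). The part of length in the doxorubicin response was not tested further.

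**Figure D5:**
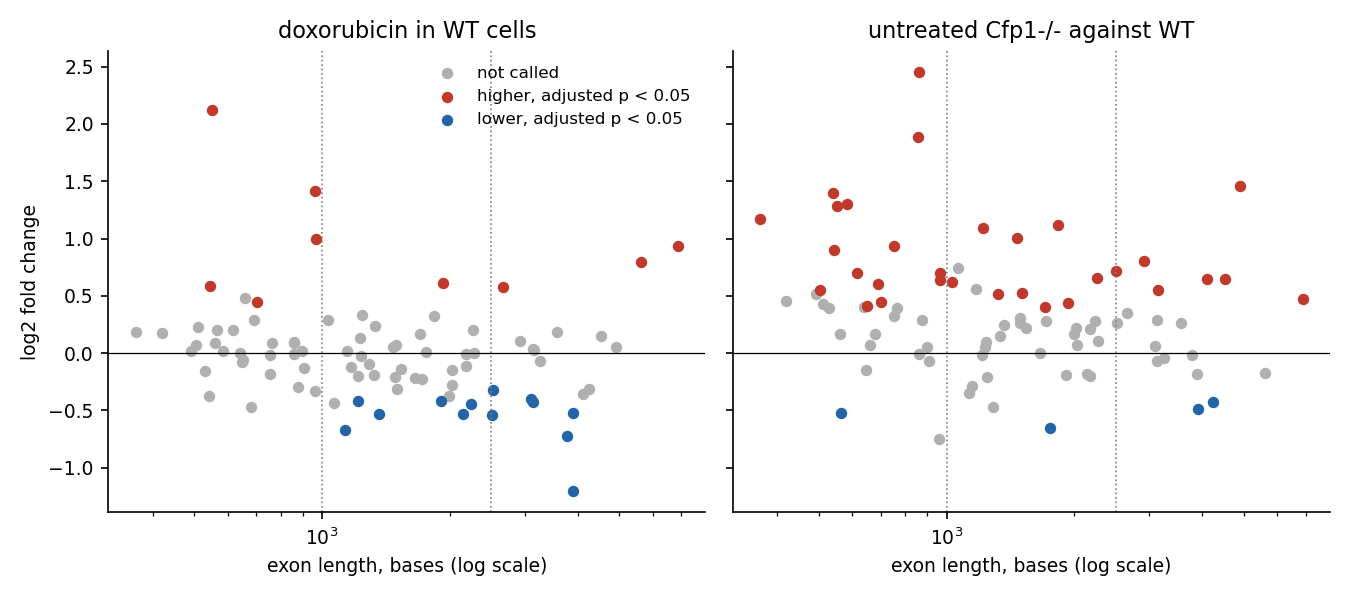
Log2 fold change of each tested member against its exon length in bases (log axis), for doxorubicin in WT cells (left) and untreated Cfp1-/- against WT (right); red and blue points are higher and lower at an adjusted p under 0.05, and dotted lines mark 1000 and 2500 bases. No blue point lies left of 1000 bases in the left panel, and 15 red points do in the right panel.

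Members that lie in the region that 1 run lacked were Ndufa1, Ndufb8, Ndufb11, Sdhaf2, Cox7b and Cox8a. The faulty run was left out for every gene, so the values of all members rest on the other run of that replicate. Ndufb8 had 923 counts in the first and 0 in the second run, Sdhaf2 495 and 0, Ndufa1 359 and 0, and Cox8a 1379 and 38, at total counts of 11772320 and 6094107. With both runs summed, the difference of Cox8a between treated lines went from 0.55 (adjusted p = 0.0135) to 0.28 (adjusted p = 0.27), and the doxorubicin response of Sdhaf2 in Cfp1-/- cells from -0.50 to -0.76.

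Genes around the pathway were read from lists chosen by function. Of 23 regulators of mitochondrial biogenesis, 2 rose and 12 fell with doxorubicin in WT cells and 4 rose and 8 fell in Cfp1-/- cells, where the shares of all genes were those given above, 27.0% and 22.8% in WT and 27.7% and 21.4% in Cfp1-/- cells. Total count scaling gave 4 rises and 5 falls in WT and 6 and 5 in Cfp1-/- cells for these regulators. The largest fall was that of Nrf1, a transcription factor known to act on many of the genes described here (-2.97 in WT, adjusted p = 1.9e-06, and -2.28 in Cfp1-/- cells). The largest rise was that of Top1mt, the mitochondrial topoisomerase I (1.87 and 2.13). Of 16 citric acid cycle genes none rose and 6 fell in WT cells, and none rose and 3 fell in Cfp1-/- cells, led by Pdha1, a subunit of pyruvate dehydrogenase, with 600 and 578 CPM in untreated and 236 and 244 CPM in treated WT cells (-1.30). Of 27 assembly factors with other names 5 rose and 6 fell in WT and 6 and 4 in Cfp1-/- cells, with Lyrm7 (1.47 and 1.48) and Bcs1l (-1.06 and -1.23), both needed to mature the Rieske protein, at the ends.

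Of 18 genes of ubiquinone synthesis and electron entry 3 rose and 5 fell with doxorubicin in WT cells, and 3 and 3 in Cfp1-/- cells. Dhodh, which feeds electrons from pyrimidine synthesis, fell in both (-1.20 and -1.09). Sqrdl rose most in WT cells (1.85), from 0.516 and 0.680 CPM to 1.64 and 2.65 CPM. Etfdh rose in both lines (1.60 and 1.67). Of 8 carriers of ADP, ATP and phosphate and their partners 2 rose and 1 fell in each line. The fall was that of Vdac2 (-0.84 in WT and -0.67 in Cfp1-/- cells). Ckmt1, a mitochondrial creatine kinase, rose by 3.73 and 3.22 on the log2 scale, from 12.7 and 9.28 CPM to 121 and 171 CPM in WT cells. The cytochrome c1 and cytochrome c genes Cyc1 and Cycs were not called. With total count scaling in WT cells the counts were 3 higher and 1 lower for the citric acid cycle, 8 and 1 for the assembly factors, 8 and 4 for ubiquinone and electron entry and 3 and 1 for the carriers. No gene of these lists passed the test of the response difference. Between untreated lines the assembly factors were higher in 11 of 27 and lower in none, while 1 of the regulators was higher and 6 lower, against 18.7% and 17.2% of all genes. The other lists had 3 higher and 1 lower of 16 (citric acid cycle), 5 and 4 of 18 (ubiquinone and electron entry) and 1 and 3 of 8 (carriers). Cyc1 was higher (0.73). In treated cells the counts were 11 and 1 for assembly factors, 2 and 5 for regulators, 5 and 1 for the cycle, 4 and 1 for ubiquinone and electron entry and 1 and 3 for carriers, against 16.0% and 12.1% of all genes, and Cyc1 was again higher (0.84).

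RefSeq promoters (250 bases before to 50 after the start) were matched by symbol for 75 of the tested members and 12245 tested genes. The letters GCATGCGC, which NRF1 recognises, stood on either strand of 11 member promoters, 14.7% against 5.38% of tested genes. The YY1 letters AAGATGGC stood in 11, also 14.7% against 4.60%, and the ETS letters CCGGAAG in 19, 25.3% against 17.5%. The median number of CpG was 19 in both the members and all tested genes. Members with the NRF1 letters had a median response to doxorubicin of 0.0011 in WT cells, with 2 of 11 higher and 2 lower, and those without them 0.01, with 6 and 7 of 64. Between untreated lines the 28 matched members that were higher in Cfp1-/- cells had a median of 17 CpG, the 4 lower ones 24.5 and the 43 not called 20.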

How the data were processed

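RNA depleted of ribosomal RNA was sequenced as stranded paired-end libraries. The authors aligned reads with STAR to NCBIM37 and counted them with HTSeq over exons of Ensembl 67, giving the deposited raw counts. The second deposited table holds a signal, the normalized count, which the authors made by dividing the summed counts by a DESeq size factor. It was checked against the raw counts and not tested. 0 columns belonged to other samples.

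Technical replicates were summed, except the run that lacked part of the genome. Genes were filtered with filterByExpr, scaled by TMM and fitted over all 4 groups with edgeR 4.0.16 in R 4.3.3 (quasi-likelihood test, common dispersion 0.0283, Benjamini-Hochberg adjustment over 15762 genes), and a gene was called at an adjusted p under 0.05. CPM are counts scaled to a TMM-adjusted library total. CPM per kb divide them by the union exon length in a GENCODE annotation of NCBIM37. Standard errors follow from the fold change and its F statistic. The test was run on simulated counts first.

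Same-numbered replicates deviated together in all 6 pairs of groups (correlations 0.133 to 0.453). The replicate number entered only the alternative fit with the replicate block. The main fit, and the calls from it, left the number out. Nothing in the labels says what a number shares. Technical replicates of 6 of the 8 pairs agreed within sampling noise (chi-square per degree of freedom 0.998 to 1.05). It was 9.61 for replicate 1 of treated WT cells and 42.9 for the pair with the faulty run.

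Copies were sought with BLAST 2.17.0 (95% identity over 50% of a transcript). Alternatives were DESeq2 1.42.0, its size factors, total count scaling, no filter, all or first runs, only the groups compared, the replicate block and leaving out each library. For 51 of 22375 gene identifiers no name was found. Members and lists were chosen with earlier results of these data known. Named genes were, per complex, the members with the largest called rise and fall at a mean of at least 1 CPM, those past the study's limits, fixed subunits of each complex with the c-ring and isoform pairs, members in the region of missing counts, and the highest and lowest per kb. From the lists around the pathway, the largest called rise and fall with doxorubicin in WT cells were taken. Others were named after their values were seen. 1 result is not reported here.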

Additional observations from a re-analysis of the deposited data

Results flagged for a closer look

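In 3 members both treated replicates lay on one side of both untreated replicates in WT cells and on the opposite side in Cfp1-/- cells, 3.49% of 86, against 2.54% of all tested genes. Uqcrc1, a core protein of complex III, had 138 and 147 CPM before and 109 and 137 CPM after doxorubicin in WT, and 141 and 143 CPM before and 154 and 150 CPM after in Cfp1-/- cells. The response in Cfp1-/- minus that in WT cells was 0.31 on the log2 scale (SE 0.18, edgeR adjusted p = 0.558). Atp5s, a small protein named with ATP synthase, had 3.37 and 3.35 CPM before and 3.03 and 2.80 CPM after in WT, and 4.39 and 3.92 CPM before and 4.92 and 5.46 CPM after in Cfp1-/- cells, a difference of 0.53 (SE 0.37, adjusted p = 0.626). Atp5sl went the other way, from 22.6 and 22.6 CPM to 24.1 and 24.7 CPM in WT and from 39.3 and 39.9 CPM to 34.4 and 34.6 CPM in Cfp1-/- cells, a difference of -0.31 (SE 0.19, adjusted p = 0.578). None of the 3 passed the test of the difference itself.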

How the results depend on the processing

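The limits of the study, with a fold and level minimum, left 1 member called for doxorubicin in WT cells, 0 in Cfp1-/- cells, 2 between untreated and 3 between treated lines, in place of 22, 10, 35 and 30. The replicate block gave 47 between treated lines, and 27, 14 and 46 in the other comparisons; for single genes, calls it changed stand beside their values. Leaving out single libraries gave 12 to 24 for WT doxorubicin, 4 to 11 for Cfp1-/- doxorubicin, 15 to 37 between untreated and 8 to 29 between treated lines. Those fits leave 1 library in a group and assume that it varies like the others. In each comparison, leaving out a library of the groups compared also lowered the calls over all tested genes. DESeq2, its size factors, no filter, all or first runs and fits of only the groups compared kept all 4 member counts within 1.5 times. Over all genes, the response difference had 39 calls, 249 by DESeq2, 228 without a filter, 352 with the block and 0 to 20 without single libraries, with 0 members called in each. For single named members 2178 of 2374 alternative values kept their direction and side of the threshold, 140 lost a call, 56 gained one and 0 reversed. Shares of counts without mitochondrial genes were not run, since the table used here lists none.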
